A study of Mus musculus with 29 samples.

Results

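The stereocilia actin-core genes were a list of 9 genes, *Espn*, *Triobp*, *Eps8*, *Fscn2*, *Pls1*, *Xirp2*, *Grxcr1*, *Ptprq* and *Whrn*, of the 37273 genes annotated on chromosomes 1 to 19, X and Y. Binding was read from the body of each gene and the 50 kb on each side of it in mm9, which held 185 of the 175162 peaks of the series. Peaks closer than 300 bp between summits were counted as 1 site, and the 185 peaks made 83 of 78408 sites. The genes were listed by name, with earlier results of these data known.

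The 6 mouse embryonic stem cell (mESC) lines compared were made from A2Lox cells by inserting a doxycycline (Dox)-inducible cassette with Atoh1, Pou4f3 and Gfi1 alone or together. Atoh1 was induced alone in iAtoh1, with Gfi1 in iG+A, with Pou4f3 in iP+A and with both in iGPA. Pou4f3 was induced alone in iPou4f3 and with Gfi1 in iG+P. The lines were grown as embryoid bodies (EBs), or clumps of stem cells that differentiate together, and all samples were collected on day 6 after 48 h of Dox at 2 µg/ml. No uninduced sample was among these libraries. Per the study's methods the lines were made from individual colonies picked after drug selection, and how many colonies stood behind each line was not given. Induced EBs are not hair cells (HCs), and the chromatin came from dissociated EBs, with no sorting of cells described. Each inserted factor was driven by a Dox-responsive promoter, not by its own. Atoh1 was precipitated through a FLAG tag in 4 lines, Pou4f3 through a MYC tag in 4 lines, and untagged Gfi1 directly, in iGPA. The 29 libraries were 17 ChIP and 12 input libraries. Each ChIP group had 2 libraries, except Gfi1 with 1.

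Stereocilia are the actin-filled projections at the top of an HC that detect sound and head movement. Their core is a bundle of parallel actin filaments held together by crosslinking proteins, anchored in the cell by a rootlet, and kept at a set length by proteins at the tip. Atoh1 is the bHLH factor required for HCs to form and binds E-boxes. Pou4f3 is a POU-homeodomain factor required for HCs to survive and binds AT-rich sequences. Gfi1 is a zinc-finger repressor that HCs also need, and the study proposes that it is a co-activator with Atoh1 as well.

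The sequences below belong to sites that carry the main patterns described later. Each is the plus strand of mm9, 200 bp centred on the summit of the list in which the peak ranked highest. Capitals mark matches, on either strand, to the E-box hexamers CAGCTG and CAGATG, to the AtEAM pattern (the extended E-box preferred by Atoh1, which can hold an E-box hexamer), to the Pou4f pattern ATAATTAAT with at most 1 mismatch, or to the Gfi1 patterns AATCACAGC and AATCACTGC. Over all 78408 sites, windows of 200 bp held an E-box hexamer in 40.9%, the AtEAM pattern in 8.5%, the Pou4f pattern in 23% and a Gfi1 pattern in 0.622%. A match describes the letters and is not evidence that the factor bound there. The first set were Atoh1 sites. An intron site of *Whrn* (chr4:63140429-63140628) had peaks of all 3 factors in iGPA, an intron site of *Triobp* (chr15:78809413-78809612) was in all 4 Atoh1 lists, and a site beyond the 3′ end of *Triobp* (chr15:78875486-78875685) had the highest fold rank of any peak at the 9 genes. The last 2 were picked after their values were seen.
Whrn intron, Atoh1, Pou4f3 and Gfi1: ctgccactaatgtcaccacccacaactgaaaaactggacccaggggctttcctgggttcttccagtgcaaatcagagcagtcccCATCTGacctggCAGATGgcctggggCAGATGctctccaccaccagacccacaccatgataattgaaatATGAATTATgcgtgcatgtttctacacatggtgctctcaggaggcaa
Triobp intron, Atoh1 in all 4 lines: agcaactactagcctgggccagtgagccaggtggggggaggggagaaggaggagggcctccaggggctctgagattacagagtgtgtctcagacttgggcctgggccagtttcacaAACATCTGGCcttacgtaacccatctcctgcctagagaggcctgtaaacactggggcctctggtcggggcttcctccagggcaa
Triobp 3′ flank, Atoh1 in all 4 lines: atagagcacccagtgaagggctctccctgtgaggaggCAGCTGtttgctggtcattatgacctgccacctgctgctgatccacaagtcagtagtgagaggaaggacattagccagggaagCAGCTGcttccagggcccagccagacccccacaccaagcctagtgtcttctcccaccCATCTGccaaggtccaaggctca
The 200 bp of the shared *Whrn* site held 3 E-box hexamers and 1 Pou4f match. In the *Triobp* intron the AtEAM match contained the E-box.

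The second set were Pou4f3 sites. An intron site of *Grxcr1* (chr5:68538127-68538326) and an intron site of *Whrn* (chr4:63102478-63102677) were in all 4 Pou4f3 lists, and an intron site of *Xirp2* (chr2:67290814-67291013) was in 3. The *Whrn* site was picked after its values were seen.
Grxcr1 intron, Pou4f3 in all 4 lines: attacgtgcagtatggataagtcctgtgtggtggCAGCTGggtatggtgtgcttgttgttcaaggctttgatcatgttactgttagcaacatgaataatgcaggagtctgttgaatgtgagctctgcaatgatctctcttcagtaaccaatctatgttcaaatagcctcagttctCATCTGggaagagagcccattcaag
Whrn intron, Pou4f3 in all 4 lines: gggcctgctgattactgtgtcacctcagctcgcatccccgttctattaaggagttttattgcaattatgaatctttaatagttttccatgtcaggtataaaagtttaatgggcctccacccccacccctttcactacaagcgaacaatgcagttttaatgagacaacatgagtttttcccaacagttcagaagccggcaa
Xirp2 intron, Pou4f3 in 3 lines: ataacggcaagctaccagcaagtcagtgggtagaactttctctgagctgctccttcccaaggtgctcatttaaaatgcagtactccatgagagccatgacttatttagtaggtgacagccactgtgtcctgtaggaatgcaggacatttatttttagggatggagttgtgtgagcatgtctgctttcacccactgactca
None of these 3 windows held the Pou4f pattern, while the *Grxcr1* window held 2 E-box hexamers. At the 5′ end of *Ptprq* the window overlapped an exon, so only the 30 bp around each of its 2 Pou4f matches are shown (chr10:107156981-107157010 and chr10:107157017-107157046).
Ptprq 5′ end, match 1: atgttgcctgcATTAATGATttaaagtcag
Ptprq 5′ end, match 2: ctggcaagtacACAATTAATgagcctggat
A site 12.8 kb upstream of *Pls1* (chr9:95758406-95758605), in an intron of *Atr* and near other genes' starts, had peaks of Atoh1 and Gfi1 in iGPA and of Pou4f3 in the other 3 Pou4f3 lines. Its window, centred on the Gfi1 summit, held none of the patterns.
Pls1 upstream, Atoh1, Pou4f3 and Gfi1: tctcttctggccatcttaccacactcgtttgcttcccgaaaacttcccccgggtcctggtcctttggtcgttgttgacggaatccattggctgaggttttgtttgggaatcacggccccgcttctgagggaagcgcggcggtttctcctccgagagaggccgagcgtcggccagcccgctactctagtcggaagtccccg

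The peak lists had been called on merged libraries, so no value below has a spread between replicates and no test between lines was possible. Fold enrichment is the authors' ratio of ChIP to background fragments at a summit. The fragment count behind it was recovered for all 185 peaks and ran from 18 to 82, and the intervals given with folds are exact Poisson 95% intervals on these counts. Intervals on shares are exact Clopper-Pearson 95% intervals. Both cover counting error only. The recovered background was the same at most peaks of a list, with 8.14 fragments at every Pou4f3 peak of iG+P here. Fold is relative to the background of its own list, so folds of different lists are not amounts on a common scale. Comparisons of folds between lines below take in counting error only. A line without a peak had no enrichment past the caller's and the authors' thresholds, which does not show that the factor was absent. The lists differed in length, from 15568 kept peaks for Atoh1 in iAtoh1 to 32632 for Pou4f3 in iG+P, with 3012 for Gfi1. As a check of the labels, at least 1 peak summit lay in the exons of *Atoh1* in 7 of 7 lists from lines with that insert and in 0 of 2 lists from lines without it. The same check did not separate the lines for *Pou4f3* or *Gfi1*, whose exons also held peaks in lists of lines without the insert.

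Pou4f3 peaks were found around more of the genes than Atoh1 peaks. All 9 genes had a Pou4f3 peak in iPou4f3 (65.7% of all annotated genes), iG+P (70.9%) and iP+A (53.4%), and 8 genes had one in iGPA (57.5%), where *Pls1* had none. Atoh1 peaks were found around 4 genes in iAtoh1 (46.6% of all genes), 5 genes in iG+A (58%), 7 genes in iP+A (55.4%) and 6 genes in iGPA (64.4%). Gfi1 peaks were found around 4 genes, *Fscn2*, *Pls1*, *Triobp* and *Whrn*, with 20.1% of all genes. *Triobp* and *Whrn* were the 2 genes with an Atoh1 peak in all 4 lists (36.3% of all genes), while 8 of 9 had a Pou4f3 peak in all 4 lists (41.7% of all genes). The 9 windows were 107 to 303 kb long and a longer window holds more peaks, so the comparison with all genes was also made per Mb.

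**Figure D1:**
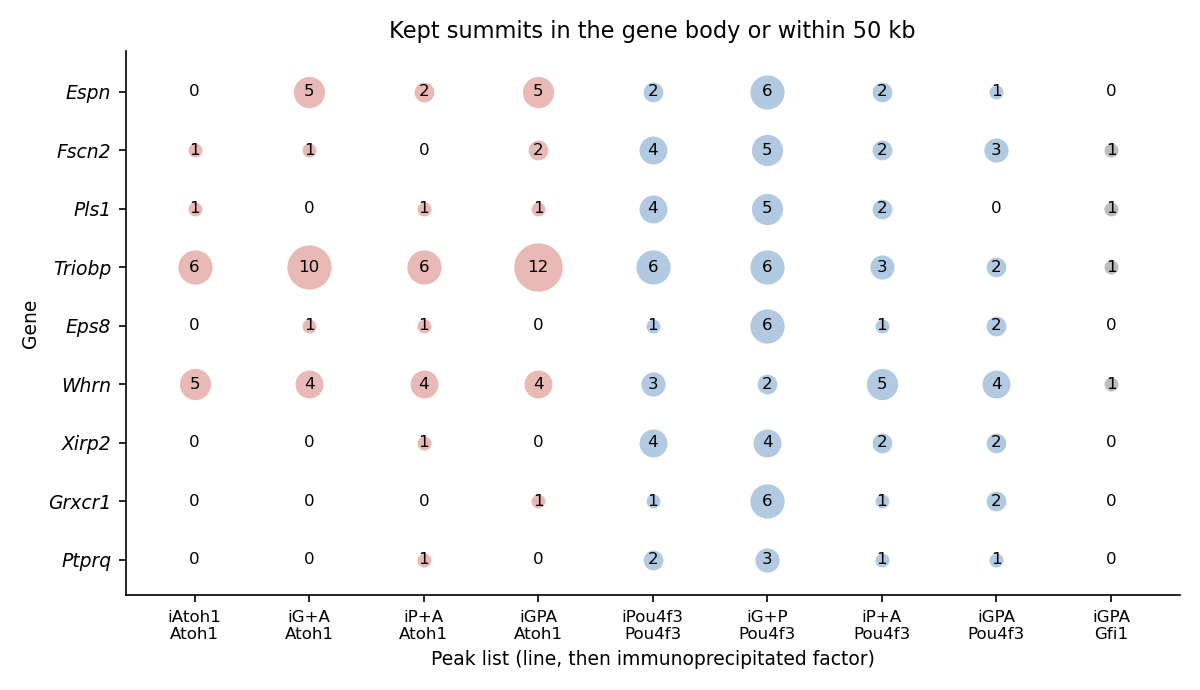
Number of kept summits in the body of each gene or within 50 kb (rows) in each of the 9 peak lists (columns), printed in each point, whose area is in proportion to it (red, Atoh1; blue, Pou4f3; grey, Gfi1). *Triobp* had 6 to 12 Atoh1 summits per list and *Whrn* 4 or 5, while *Xirp2*, *Grxcr1* and *Ptprq* each had 1 Atoh1 summit in 1 list.

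The number of Pou4f3 summits at the 9 genes was 27 in iPou4f3, 43 in iG+P, and was 19 in iP+A and 17 in iGPA. Those of Atoh1 numbered 25 in iGPA, 21 in iG+A, 16 in iP+A, with 13 in iAtoh1. For each factor the order of the counts was that of the list lengths, except that iP+A held more member summits of Pou4f3 than iGPA with a shorter list. When every Atoh1 and Pou4f3 list was shortened to its 15568 peaks of highest −log10 p, the 8 counts lay between 13 and 17, with 16 in iG+P, 15 in iPou4f3 and 14 for Atoh1 in iGPA. The difference between lines in the number of summits was thus not seen at equal list length.

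Per Mb, the 9 windows held more Pou4f3 summits in iG+P than the windows of all genes, at 24.3 summits per Mb (exact Poisson 95% interval 17.6 to 32.8) against 14.8. In iPou4f3 the values were 15.3 (10.1 to 22.2) and 10.3, in iP+A 10.8 (6.48 to 16.8) and 7.73, and in iGPA 9.63 (5.61 to 15.4) and 8.24, and these 3 intervals contained the value of all genes. The Atoh1 densities were 7.36 per Mb (3.92 to 12.6) in iAtoh1, 11.9 (7.36 to 18.2) in iG+A, 9.06 (5.18 to 14.7) in iP+A and 14.2 (9.16 to 20.9) in iGPA. The windows of all genes held 7.4, 9.85, 8.91 and 12.5, inside those intervals. Gfi1 summits stood at 2.26 per Mb (0.617 to 5.8) against 1.45.

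**Figure D2:**
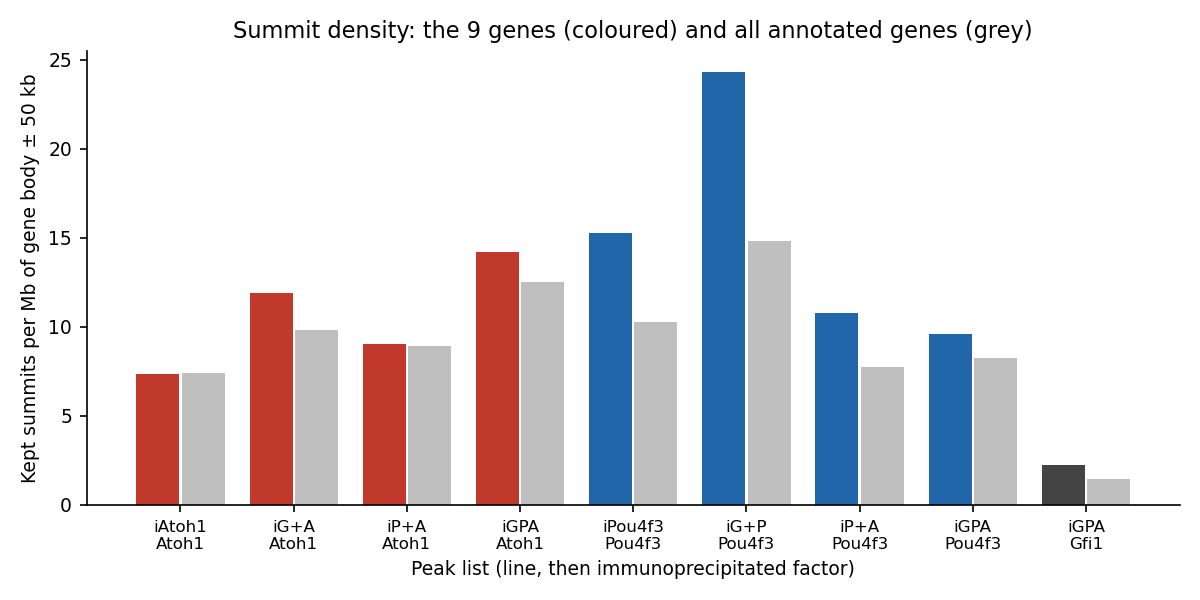
Kept summits per Mb of gene body with 50 kb on each side, for the 9 genes (coloured bars) and for all annotated genes, overlapping windows counted once (grey bars), in each list. The tallest pair is Pou4f3 in iG+P, at 24.3 for the 9 genes and 14.8 for all genes.

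Most Atoh1 summits belonged to few genes. *Triobp* and *Whrn* held 51 of the 75 Atoh1 summits of the 4 lists (68%, 56.2 to 78.3), and with *Espn* 63, leaving 12 for the other 6 genes. Of the 106 Pou4f3 summits, *Triobp* and *Whrn* held 31 (29.2%, 20.8 to 38.9). Without *Triobp* the Atoh1 counts became 13 in iGPA, 11 in iG+A, 10 in iP+A, with 7 in iAtoh1.

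The first genes are the crosslinkers of the actin bundle. *Espn* (espin, chr4:151494440-151526480, minus strand) bundles the filaments of the stereocilium. It had no Atoh1 summit in iAtoh1, 2 in iP+A and 5 each in iG+A and iGPA. Its Pou4f3 summits numbered 2, 6, 2 and 1, in the order iPou4f3, iG+P, then iP+A and iGPA, which is kept for the genes that follow, with iAtoh1, iG+A, then iP+A and iGPA for Atoh1. Thus Atoh1 peaks were called around *Espn* in each line with a second factor and not in the line with Atoh1 alone. In that line the authors called no peak before their filter either. That line also had the shortest Atoh1 list, and the share of all genes with this pattern was not counted. The −log10 p of these Atoh1 peaks was 4.8 to 6.41 in iG+A and reached 13.3 in iP+A and 24.9 in iGPA. Only 5 of the 12 sites around *Espn* were nearest to an annotated start of the gene. The site in the most lists (chr4:151551942-151552542) lay 25.9 kb upstream, 140 bp from the start of *Acot7*, with Atoh1 folds of 2.94 (1.87 to 4.42) in iG+A, 4.09 (2.91 to 5.59) in iP+A and 6.15 (4.58 to 8.1) in iGPA and a Pou4f3 fold of 2.6 (1.67 to 3.88) in iP+A. At the 5′ end of *Espn* itself (chr4:151526313-151526653), 24 bp from the start, there was an Atoh1 peak in iG+A with a fold of 2.94 (1.87 to 4.42) and a Pou4f3 peak in iG+P with a fold of 2.63 (1.71 to 3.89). An intron site 6 kb into the gene (chr4:151520300-151520630) had Pou4f3 peaks in 3 lists. Its fold was 3.09 (2.04 to 4.51) in iPou4f3, 3.17 (2.15 to 4.54) in iG+P and 5.97 (4.31 to 8.08) in iGPA. The iGPA value was above the other 2, and its interval overlapped theirs.

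*Fscn2* (fascin-2, chr11:120222848-120229482) encodes another crosslinker. No summit of any list lay in its short body of 6.6 kb, and all 19 summits around it were in the flanks. Its own nearest site, 3.6 kb upstream in intergenic sequence (chr11:120219033-120219387), had Pou4f3 peaks in iPou4f3, iG+P and iGPA with folds of 6.18 (4.63 to 8.09), 5.03 (3.7 to 6.7) and 3.38 (2.34 to 4.73), and none in iP+A. This was the only one of its 8 sites whose nearest start was that of *Fscn2*. The broadest site (chr11:120209288-120209804) was 167 bp from the start of *Actg1*, the gene of γ-actin, and held Pou4f3 in all 4 lines with folds of 2.91 to 4.27 and Atoh1 in iGPA with a fold of 2.83 (1.82 to 4.22). A neighbouring site (chr11:120209954-120210408) at the start of 0610009L18Rik also held Pou4f3 in all 4 lines, with folds of 2.52 to 3.78. Of the 4 Atoh1 summits, 2 were 1 site 36.4 kb from the 5′ end in an intron of *Nploc4*, in iG+A with a fold of 2.8 (1.76 to 4.26) and in iGPA with a fold of 3.08 (2.02 to 4.52).

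*Pls1* (plastin-1 or fimbrin, chr9:95653061-95745730, minus strand) is the third crosslinker. It had 1 Atoh1 summit in iAtoh1, iP+A and iGPA each, none in iG+A, and 4, 5, 2 and 0 Pou4f3 summits. The Atoh1 peak in iAtoh1 lay in an intron 79.1 kb into the gene (chr9:95666448-95666860) with a fold of 4.28 (3 to 5.93), together with Pou4f3 peaks in iPou4f3 at 2.98 (1.97 to 4.35) and iG+P at 2.96 (1.97 to 4.28). At this place the authors had also called Atoh1 peaks in iG+A, iP+A and iGPA with folds of 3.2, 2.69 and 2.83, which were not in their kept lists. Near the start of *Pls1*, at 245 bp, there was an Atoh1 peak in iP+A with a fold of 2.47 (1.59 to 3.69), among the lowest folds of its list.

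*Triobp* (chr15:78778154-78836299) encodes the protein that packs the actin of the rootlet. It had the most Atoh1 summits of the 9 genes, 12 in iGPA, 10 in iG+A and 6 each in iAtoh1 and iP+A, and 6, 6, 3 and 2 Pou4f3 summits. Its window holds several other genes, and 6 of its 20 sites were nearest to an annotated start of *Triobp*. The intron site whose sequence is given above (chr15:78809358-78809730), 31.4 kb into the gene, was in all 4 Atoh1 lists. Its folds were 3.79 (2.59 to 5.35) in iAtoh1, 3.82 (2.6 to 5.43) in iG+A, 3.66 (2.55 to 5.09) in iP+A and 4.31 (3.02 to 5.97) in iGPA. The 4 values did not differ beyond counting error, and no Pou4f3 or Gfi1 peak was kept there.

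The Atoh1 site in the 3′ flank of *Triobp* (chr15:78875383-78875735), whose nearest start, at 3271 bp, was that of *Gcat*, had folds of 9.41 (7.44 to 11.7) in iAtoh1, 5.61 (4.06 to 7.56) in iG+A, 4.63 (3.36 to 6.21) in iP+A and 8.86 (6.95 to 11.1) in iGPA. The intervals of iAtoh1 and iGPA lay above that of iP+A, while the folds of lines with and without Pou4f3 did not separate. Within their lists the same peaks ranked at percentile 99, 91.6, 86.3 and 94.7, in the order just given. The most widely bound site of all 9 genes (chr15:78744022-78744711) was 52 bp from the start of *Pdxp*, 33.8 kb upstream of *Triobp*. It was in 7 lists, which were the 4 Atoh1 lists and those of Pou4f3 in iPou4f3 with a fold of 5.8 (4.43 to 7.47), iG+P at 3.83 (2.69 to 5.31) and iP+A at 4.25 (3.04 to 5.8). In iGPA a Pou4f3 peak had been called at the same place with a fold of 3.19 and was not kept. The Gfi1 peak of the *Triobp* window had a fold of 10.3 (7.63 to 13.7), the highest of the 4 Gfi1 peaks, and lay 61 bp from the start of *Gcat*.

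The next genes act at or near the tip. *Eps8* (chr6:137425766-137603397, minus strand) encodes an actin-capping and bundling protein needed for stereocilia to reach full length. It had 0, 1, 1 and 0 Atoh1 summits and 1, 6, 1 and 2 Pou4f3 summits. None of its 8 sites was in more than 2 lists. A Pou4f3 peak 37 bp from an internal annotated start of *Eps8* (chr6:137537434-137537752) had folds of 3.21 (2.14 to 4.65) in iPou4f3 and 2.63 (1.71 to 3.89) in iG+P. Its strongest Pou4f3 peak by rank, in an intron (chr6:137488710-137489030), had a fold of 3.61 (2.51 to 5.05) in iG+P and 3.06 (1.92 to 4.64) in iGPA. An intron site (chr6:137442376-137442892) held Atoh1 at 3.12 (2.11 to 4.46) and Pou4f3 at 2.94 (1.94 to 4.29), both in iP+A and in no other line.

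*Whrn* (whirlin, chr4:63075944-63157025, minus strand), a scaffold protein that is carried to the tip with Eps8, was the gene with the most summits inside its own body, 13 of Atoh1, 11 of Pou4f3 and 1 of Gfi1. The Atoh1 summits numbered 5, 4, 4 and 4 and those of Pou4f3 3, 2, 5 and 4. Near its 5′ end, 0.7 kb into the gene (chr4:63156096-63156467), Atoh1 was found in all 4 lines. The folds there were 4.52 (3.2 to 6.21) in iAtoh1, 4.67 (3.28 to 6.48) in iG+A, 4.2 (3 to 5.72) in iP+A and 6.52 (4.9 to 8.51) in iGPA, and all 4 intervals overlapped. Pou4f3 was at this site in iP+A alone, with a fold of 2.6 (1.67 to 3.88).

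The intron site of *Whrn* with 3 factors (chr4:63140356-63140747), 16.5 kb into the gene, differed. Atoh1 had a fold of 7.31 (5.69 to 9.26) in iP+A and 8.0 (6.19 to 10.2) in iGPA, which ranked at percentile 96.5 and 93.1 of their lists. No Atoh1 peak was called there in iAtoh1 or iG+A, even before the authors' filter. Pou4f3 had a fold of 3.28 (2.22 to 4.69) in iP+A and 4.22 (2.86 to 6.04) in iGPA and no called peak in iPou4f3 or iG+P. Gfi1 in iGPA had a fold of 6.6 (4.49 to 9.38). Atoh1 and Pou4f3 thus each had a peak there in the 2 lines that carried both. Neither had one in the 2 lines in which it was assayed without the other, and Gfi1 was assayed in iGPA alone. It was the only one of the 39 Atoh1 sites at the 9 genes in both lists with Pou4f3 and neither list without it (2.56%, 0.0649 to 13.5, against 7.98% of all Atoh1 sites). It was also the only one of the 62 Pou4f3 sites in both lists with Atoh1 and neither without it (1.61%, 0.0408 to 8.66, against 1.47%). The Atoh1 and Pou4f3 peaks of 1 line were called against the same input libraries.

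Another intron site, 54.4 kb into the gene (chr4:63102398-63102727), had Pou4f3 in all 4 lines, with folds of 3.92 (2.72 to 5.49) in iPou4f3, 3.94 (2.78 to 5.44) in iG+P, 3.96 (2.78 to 5.49) in iP+A and 5.39 (3.82 to 7.4) in iGPA. The folds did not differ between lines beyond counting error.

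**Figure D3:**
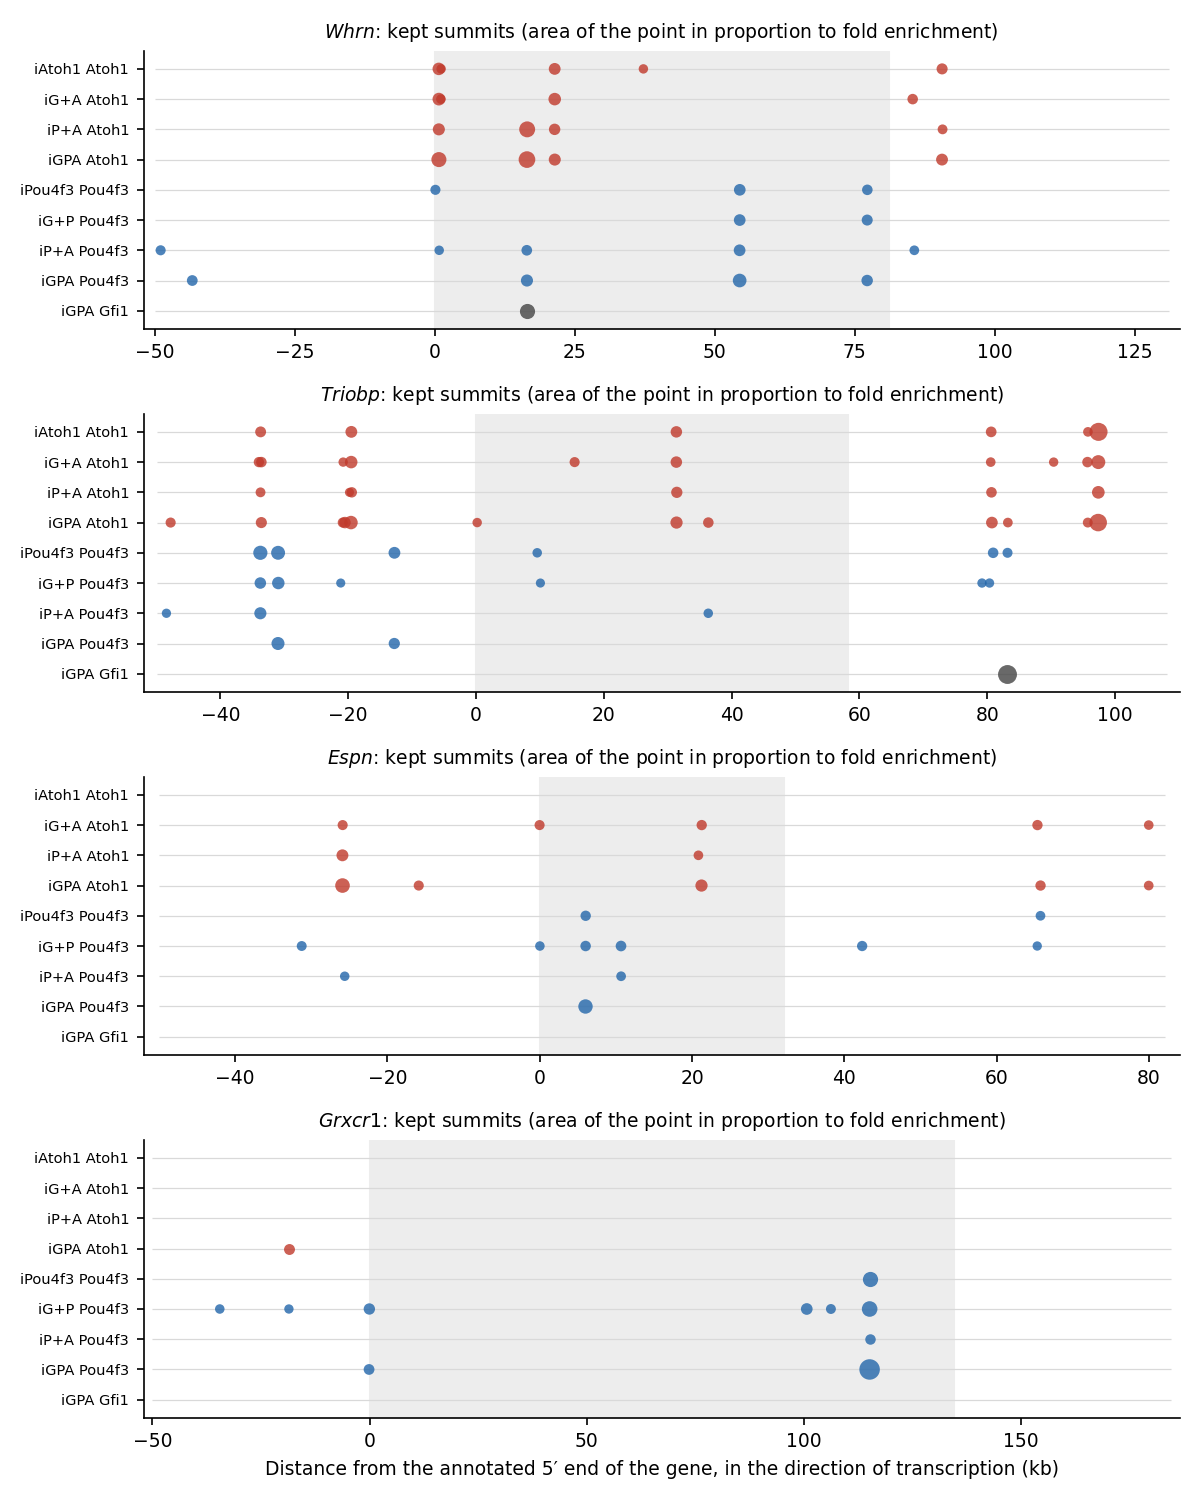
Positions of kept summits at *Whrn*, *Triobp*, *Espn* and *Grxcr1* in each of the 9 lists, by distance from the annotated 5′ end in kb, with the gene body shaded and the area of a point in proportion to fold enrichment (red, Atoh1; blue, Pou4f3; grey, Gfi1). At 16.5 kb into *Whrn* points are seen for both lists of iP+A and all 3 of iGPA, at 115.2 kb into *Grxcr1* for all 4 Pou4f3 lists, and *Espn* has none for Atoh1 in iAtoh1.

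The other 3 genes had Pou4f3 peaks in all 4 lines and an Atoh1 peak in 1 line each. *Xirp2* (chr2:67284059-67364671) encodes an actin-binding protein that takes part in stereocilia maintenance. It had 4, 4, 2 and 2 Pou4f3 summits and 1 Atoh1 summit, in iP+A. Its intron site 6.9 kb into the gene (chr2:67290757-67291070) held Pou4f3 with folds of 3.33 (2.23 to 4.79) in iPou4f3, 3.17 (2.15 to 4.54) in iG+P and 6.99 (5.17 to 9.25) in iGPA, with none kept in iP+A. The iGPA interval lay above the other 2. A site in the 3′ flank (chr2:67383992-67384308) had folds of 2.63 (1.71 to 3.89) in iG+P, 2.94 (1.94 to 4.29) in iP+A and 5.39 (3.82 to 7.4) in iGPA. Folds in the iGPA Pou4f3 list were higher in general, with a median of 4.08 against 2.96 to 3.33 in the other Pou4f3 lists. By rank within the lists the iGPA peaks were still the highest, at percentile 83.7 against 49.8 in iPou4f3 and 58.1 in iG+P for the intron site and at 71.1 against 21.6 in iG+P and 37.3 in iP+A for the site in the flank.

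*Grxcr1* (chr5:68423074-68557637), a glutaredoxin-like gene whose loss leaves thin stereocilia, had 1, 6, 1 and 2 Pou4f3 summits and 1 Atoh1 summit, in iGPA. Its intron site 115.2 kb into the gene (chr5:68538047-68538376) was in all 4 Pou4f3 lists and in no Atoh1 or Gfi1 list. The folds were 6.66 (5.04 to 8.63) in iPou4f3, 7.01 (5.41 to 8.93) in iG+P, 3.17 (2.13 to 4.56) in iP+A and 12.1 (9.64 to 15) in iGPA. The iGPA value was the highest fold of any peak at the 9 genes, and the 4 lines fell into 3 levels whose intervals did not overlap. Within their lists the same peaks ranked at percentile 91.6, 95.9, 52.7 and 95.6, so by rank iP+A stood apart and iGPA did not. At the 5′ end of *Grxcr1* (chr5:68422803-68423170), 53 bp from the start, Pou4f3 was found in iG+P with a fold of 3.72 (2.6 to 5.18) and in iGPA with a fold of 3.35 (2.15 to 5), the 2 Pou4f3 lines that also carried Gfi1. Of the 62 Pou4f3 sites at the 9 genes 3 were in both of these lists and in neither of the other 2 (4.84%, 1.01 to 13.5, against 5.33% of all Pou4f3 sites). The window of 250 bp around it held 1 Pou4f match.

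*Ptprq* (chr10:106954416-107157083, minus strand) encodes a membrane phosphatase of the stereocilia shaft. It had 2, 3, 1 and 1 Pou4f3 summits and 1 Atoh1 summit, in iP+A. Its 5′ end (chr10:107156907-107157261), 26 bp from the start and with the 2 Pou4f matches given above, held Pou4f3 with folds of 2.85 (1.85 to 4.22) in iPou4f3, 3.17 (2.15 to 4.54) in iG+P and 3.93 (2.62 to 5.69) in iGPA. The folds did not differ beyond counting error. In iP+A the single Pou4f3 peak was 164.5 kb into the gene (chr10:106992337-106992717) with a fold of 3.06 (2.04 to 4.43), together with the Atoh1 peak of the same line at 2.8 (1.85 to 4.08) and a Pou4f3 peak of iG+P at 2.63 (1.71 to 3.89).

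**Figure D4:**
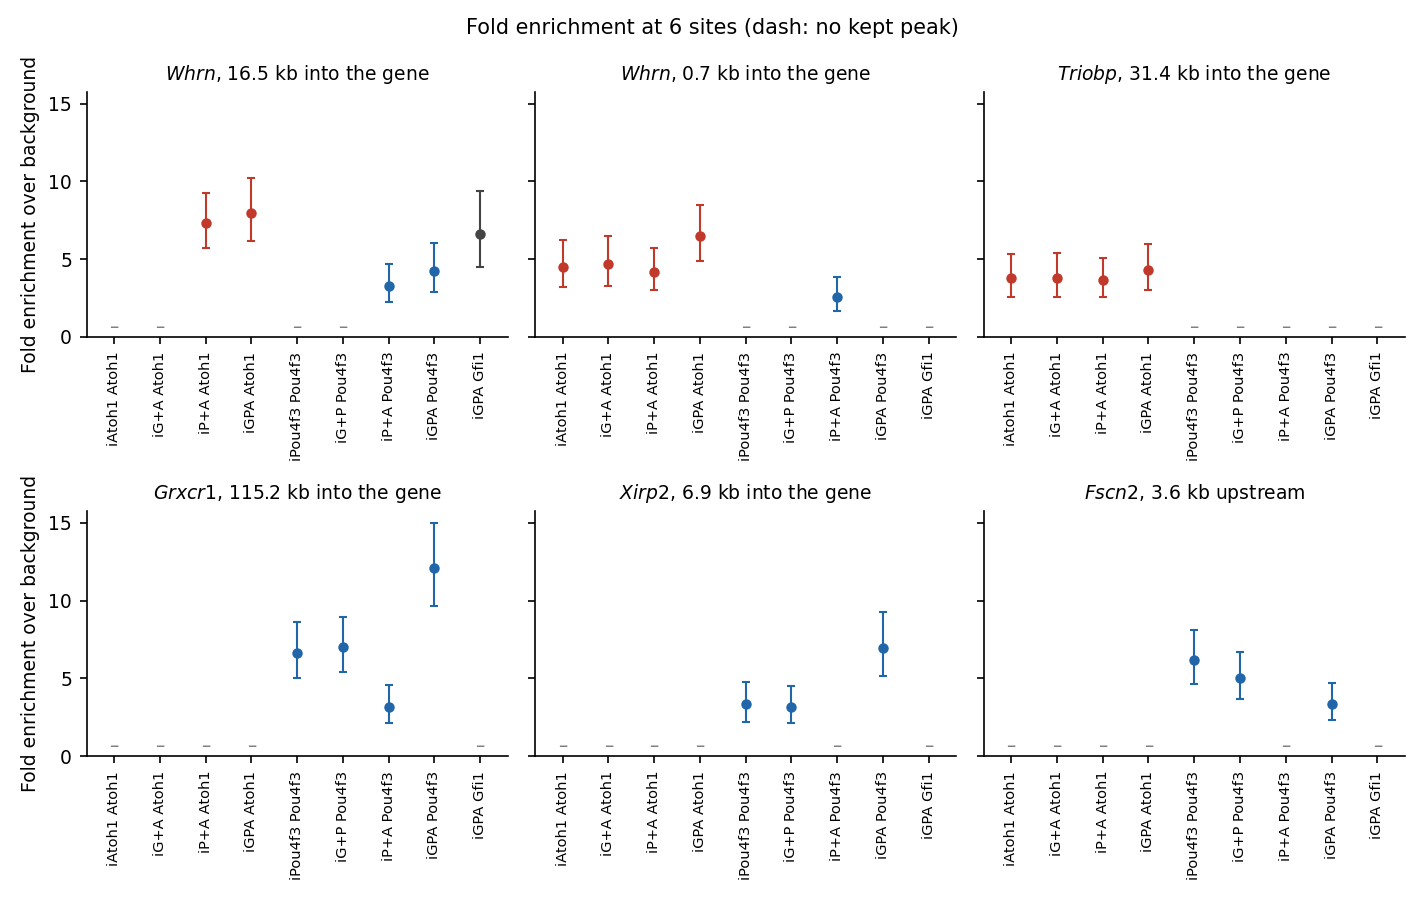
Fold enrichment (ratio, linear axis) at 6 sites in each list, with exact Poisson 95% intervals for counting error (red, Atoh1; blue, Pou4f3; grey, Gfi1; dash, no kept peak). The *Grxcr1* site reached 12.1 in iGPA and 3.17 in iP+A, the *Whrn* site at 16.5 kb has points in iP+A and iGPA only, and the *Triobp* site lies between 3.66 and 4.31 in the 4 Atoh1 lists.

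Most Atoh1 peaks at the 9 genes were of ordinary height for their lists, while the median Pou4f3 peak there was below the median of every Pou4f3 list. The median fold of member peaks was 3.07 to 3.54 in the Atoh1 lists, where the medians of all kept peaks were 3.12 to 3.45. In the Pou4f3 lists it was 2.85 to 3.79, against 2.96 to 4.08. The median member peak ranked between percentile 37 and 66.5 in the Atoh1 lists and between 37.3 and 39.5 in the Pou4f3 lists. It ranked at 73.1 in the Gfi1 list with 4 peaks.

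Of the 83 sites, 20 held Atoh1 without Pou4f3 in any line (24.1%, 15.4 to 34.7), 43 held Pou4f3 without Atoh1 (51.8%, 40.6 to 62.9), 19 held both factors, though not always in the same line (22.9%, 14.4 to 33.4) and 1 held Gfi1 alone. Over all sites these shares were 38.3%, 42.3%, 18.2% and 1.17%. Per Mb, however, sites with Atoh1 alone stood at 11.3 (6.92 to 17.5) in the windows of the 9 genes and at 14.1 in those of all genes, inside the interval, while sites with Pou4f3 alone stood at 24.3 (17.6 to 32.8) against 14.7 and sites with both at 10.8 (6.48 to 16.8) against 6.83. The interval for Pou4f3 alone lay above the value of all genes. Among the single Pou4f3 lists this held for the density in iG+P only, the longest list. Its 43 summits fell to 16 at equal list length. The density of all genes was not counted at that length, so whether the excess remained is not known. By gene, *Xirp2*, *Grxcr1* and *Ptprq* had no site with Atoh1 alone and *Triobp* had 9. In position, 34 sites lay in the body of the gene (41%, 30.3 to 52.3), and for 42 the nearest annotated start was that of the gene (50.6%, 39.4 to 61.8). Of the rest, 38 lay outside the gene and nearer the start of another gene. When only summits nearest to a start of the listed gene were counted, the numbers fell to 5, 7, 8 and 8 for Atoh1 and 14, 24, 9 and 11 for Pou4f3 in the order of lines used above, and to 1 for Gfi1. No site had its summit in a short tandem repeat.

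Lines that differ by 1 added factor were then compared by the share of sites they had in common, at the 9 genes. The Atoh1 sites of iAtoh1 and iG+A, which differ by Gfi1, shared 9 of 24 (37.5%, 18.8 to 59.4, all sites 28.9%), and those of iP+A and iGPA 10 of 30 (33.3%, 17.3 to 52.8, all sites 31.9%). With Pou4f3 added, iAtoh1 and iP+A shared 8 of 20 (40%, 19.1 to 63.9, all sites 28.8%) and iG+A and iGPA 13 of 32 (40.6%, 23.7 to 59.4, all sites 30.2%). Without *Triobp*, iAtoh1 shared 20% with iG+A and 21.4% with iP+A. For Pou4f3, adding Gfi1 gave 16 of 54 (29.6%, 18 to 43.6, all sites 34%) for iPou4f3 and iG+P and 6 of 30 (20%, 7.71 to 38.6, all sites 34.1%) for iP+A and iGPA. Adding Atoh1 gave 8 of 38 (21.1%, 9.55 to 37.3, all sites 33%) for iPou4f3 and iP+A and 14 of 46 (30.4%, 17.7 to 45.8, all sites 35.4%) for iG+P and iGPA. All 8 intervals contained the value over all sites, and they are wide enough that differences of the size seen between lines were not detectable. With only peaks of −log10 p of at least 10, each pair had 6 to 13 sites. The Atoh1 pairs that differ by Gfi1 then shared 5 of 6 (83.3%, 35.9 to 99.6, all sites 32.9%) and 6 of 11 (54.5%, 23.4 to 83.3, all sites 32.2%). Those that differ by Pou4f3 shared 4 of 8 (50%, 15.7 to 84.3, all sites 30.6%) and 5 of 11 (45.5%, 16.7 to 76.6, all sites 30.1%). The Pou4f3 pairs shared 60% (26.2 to 87.8, all sites 42.5%) and 11.1% (0.281 to 48.2, all sites 32.1%) with Gfi1 added. With Atoh1 added they shared 25% (3.19 to 65.1, all sites 34.4%) and 23.1% (5.04 to 53.8, all sites 45.3%). Of these 8 intervals that of iAtoh1 and iG+A lay above its value over all sites, and the 4 intervals of each factor overlapped. The 5 sites shared by iAtoh1 and iG+A at this threshold all lay in the windows of *Triobp* and *Whrn*. The iGPA Pou4f3 sites were mostly also in iG+P, 14 of 17 (82.4%, 56.6 to 96.2), and made up 32.6% (19.1 to 48.5) of the 43 iG+P sites. Over all sites these shares were 71.3% and 41.4%.

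**Figure D5:**
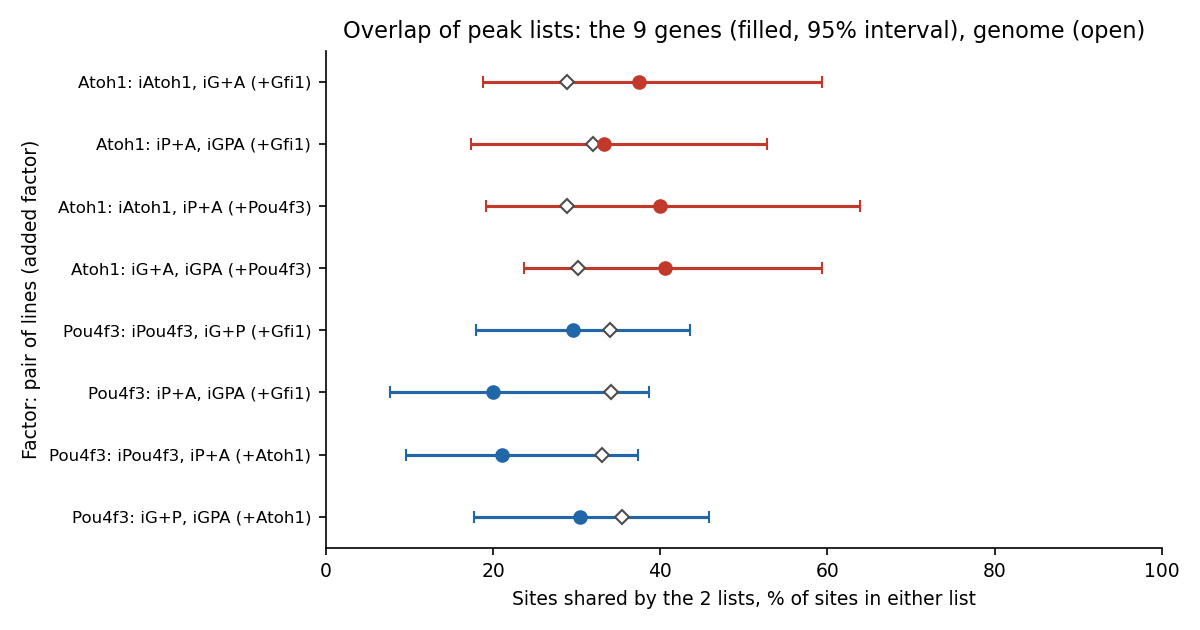
Sites shared by 2 lists of the same factor as a percentage of the sites in either list, for pairs of lines that differ by 1 added factor (filled points with exact 95% intervals, the 9 genes; open diamonds, all sites). The filled points lie between 20% and 40.6% and every interval contains its diamond.

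Across its 4 lists Atoh1 was found in all 4 at 7 of 39 sites (17.9%, 7.54 to 33.5, all Atoh1 sites 10.7%), of which 5 were in the *Triobp* window and 2 in that of *Whrn*. Pou4f3 was in all 4 lists at 4 of 62 sites (6.45%, 1.79 to 15.7, all Pou4f3 sites 14.8%), at *Fscn2*, *Grxcr1* and *Whrn*. Sites of Pou4f3 found in iG+P alone numbered 20 (32.3%, 20.9 to 45.3, all Pou4f3 sites 26.2%). Atoh1 sites in at least 1 list with Pou4f3 and in no list without it numbered 15 (38.5%, 23.4 to 55.4, all Atoh1 sites 39.6%). In iGPA 2 of 25 Atoh1 sites also held Pou4f3 (8%, 0.984 to 26, all sites 15.2%), the *Whrn* intron and the *Actg1* start, and in iP+A 6 of 16 did (37.5%, 15.2 to 64.6, all sites 23%). At a −log10 p of at least 10 none of the iP+A sites did. Both lists of a line share their input libraries, so these counts are given as a description.

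Patterns were counted in the 250 bp around a single summit per site, that of the highest fold rank in any list. At most member sites with both factors this was not a Pou4f3 summit. Atoh1 sites at the 9 genes held an E-box hexamer in this window at 24 of 39 (61.5%, 44.6 to 76.6), against 61.2% of all Atoh1 sites. The AtEAM pattern was at 2 of 39, both in the *Triobp* window (5.13%, 0.627 to 17.3, all Atoh1 sites 14.8%). Pou4f3 sites held the Pou4f pattern in this window at 15 of 62 (24.2%, 14.2 to 36.7). The interval lay below the 37.7% of all Pou4f3 sites. In both sets the windows were chosen in the same way and were not all centred on Pou4f3 summits. Among sites with Pou4f3 and no Atoh1 the share was 14 of 43 (32.6%, 19.1 to 48.5), and the 46.9% of all such sites lay inside the interval. Of the sites with both factors 1 of 19 held the pattern, the *Whrn* intron (5.26%, 0.133 to 26). The 16.5% of all such sites lay inside the interval. The Pou4f3 sites of *Grxcr1*, *Whrn* and *Xirp2* printed above held none.

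A second list of 29 genes for other stereocilia proteins and actin regulators was counted in the same way. In the same order of lines, Atoh1 peaks were around 18, 24, 23 and 26 of them and Pou4f3 peaks around 25, 27, 21 and 25. Gfi1 peaks were around 8. These were 62.1%, 82.8%, 79.3% and 89.7% of the 29 genes for Atoh1, against the 46.6%, 58%, 55.4% and 64.4% of all genes, and 86.2%, 93.1%, 72.4% and 86.2% for Pou4f3, against 65.7%, 70.9%, 53.4% and 57.5%. For Gfi1 the shares were 27.6% and 20.1%. The lengths of the windows were not matched here, and *Actg1* lies in the window of *Fscn2*, so some peaks count for both lists. Picked after the values were seen, *Baiap2l2*, a protein of the stereocilia tip, had 3, 8, 4 and 9 Atoh1 summits and 0, 1, 1 and 1 Pou4f3 summits, while *Lcp1*, a plastin like *Pls1*, had no Atoh1 summit in any line and 2, 2, 1 and 1 of Pou4f3. The median gene of both lists had a peak in 7 of the 9 lists, against 5 for all genes. *Msn* had none in any list.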

How the data were processed

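ChIP-seq peak lists of Atoh1, Pou4f3 and Gfi1 from induced mESC lines were analysed. Per its methods, Bowtie 2 placed the reads on mm9, duplicate and blacklisted alignments were discarded, and MACS 2 compared the merged ChIP replicates with the merged inputs of the line. Fold enrichment is a ratio deposited by the authors, and the −log10 p of a summit is that of the authors' peak caller. Peaks named in the deposited summit lists were kept. The signal column of those lists, as deposited, was not used, and the filter behind them was not stated. Total read depth was not used here. Sample groups came from the sample titles, and the lists named only as those of 3 factors were taken to be of iGPA, the only line with 3.

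Summits (windows of 300 bp joined where they shared at least 1 bp) were assigned to a gene when in its body or within 50 kb, by the GENCODE vM1 annotation of NCBIM37, the assembly also called mm9. ChIP fragments were recovered from fold and −log10 p within 0.001. Percentiles are ranks of fold within a list. Patterns were searched on both strands in 250 bp around the summit of highest fold rank at a site, with Python 3 scripts tested on simulated data. No test was run: the lists have no replicate values and members are not replicates. The genes and the second list were chosen with earlier results of these data known. All 9 genes are named. Sites named are mostly, for each gene, the one in the most lists and the highest fold ranks of Atoh1 and Pou4f3. Others were picked after their values were seen. The highest-ranked Pou4f3 sites of *Pls1* and *Ptprq* and the Atoh1 sites of *Xirp2* and *Grxcr1* are not described. Sequences are those of the broadest sites in at least 3 lists and of sites with Atoh1 and Pou4f3 in iGPA, and windows overlapping exons are not printed in full, and 1 site is not reported here. Alternatives were other distances, windows, peak thresholds, list lengths and pattern settings. Added after the data were seen were the summits nearest a start of the gene, and the omission of *Triobp*.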

Additional observations from a re-analysis of the deposited data

Results flagged for a closer look

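The authors' callers also reported 16 peaks at the 9 genes that are not in the kept lists and that none of the counts above includes, although those at *Pls1* and *Pdxp* are named beside the kept ones. They lay around 5 genes, *Triobp*, *Pls1*, *Fscn2*, *Espn* and *Whrn*, in 8 of the 9 lists, with folds of 2.41 to 3.7. At 1 place in *Pls1* the kept lists hold Atoh1 in iAtoh1 and Pou4f3 in iPou4f3 and iG+P, while the peaks left out are Atoh1 in iG+A, iP+A and iGPA and Pou4f3 in iP+A. With all called peaks every count of summits and of genes stayed within 1.5 times its value.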

How the results depend on the processing

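No paired analysis was possible because replicates were merged before peaks were called. Of 197 values under alternatives, 140 stayed within 1.5 times the reported count or inside the 95% interval of the reported share, among them all those with windows of 100 or 1000 bp and all called peaks. The intervals are wide, and 7 shares inside them moved by over 1.5 times. Common sites went from 37.5% to 20% (iAtoh1, iG+A) and from 40% to 21.4% (iAtoh1, iP+A) without *Triobp*, from 20% to 11.1% (iP+A, iGPA, Pou4f3) at a −log10 p of at least 10 and from 21.1% to 11.1% (iPou4f3, iP+A) in gene bodies. Atoh1 sites with Pou4f3 in iGPA went from 8% to 4% with windows of 100 bp, 14.3% in gene bodies and 15.4% without *Triobp*. Values below are in the order iAtoh1, iG+A, iP+A, iGPA for Atoh1, iPou4f3, iG+P, iP+A, iGPA for Pou4f3, then Gfi1. Within gene bodies summits numbered 6, 6, 8, 7, then 12, 19, 8, 8 and 1, and genes with a summit 3 in iG+A, 3 and 5 in iGPA and 1 for Gfi1. Within 100 kb Atoh1 summits numbered 42 in iGPA, 35 in iG+A and 26 in iP+A. At a −log10 p of at least 10 summits numbered 6, 5, 6, 11, then 7, 9, 3 and 7, and genes 2, 3 and 3 in iG+A, iP+A and iGPA for Atoh1 and 4, 5, 3 and 5 for Pou4f3. At equal list length summits numbered 14 for Atoh1 in iGPA, 15 in iPou4f3 and 16 in iG+P. For summits nearest a start of the gene the numbers were 5, 7, 8, 8, then 14, 24, 9, 11 and 1, and genes 2 in iAtoh1, 3 in iG+A and 1 for Gfi1. Without *Triobp* Atoh1 summits numbered 7, 11, 10 and 13. In each of these settings fewer or more base pairs, peaks or genes were counted. The share of common Atoh1 sites became 83.3% for iAtoh1 and iG+A at a −log10 p of at least 10, and 54.5% at that threshold or 58.8% at equal length for iP+A and iGPA; for iPou4f3 and iG+P it became 60% at that threshold. The share of Atoh1 sites with Pou4f3 in iP+A became 0% there. These causes were not tested. E-box hexamers were at 43.6% of Atoh1 sites in 100 bp and the Pou4f pattern, with no mismatch, at 3.23% of Pou4f3 sites. Counts of 13 to 43 summits per list limit what differences between lines can be seen.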
